A study of Homo sapiens with 8 samples.

Results

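The mitochondrial ribosomal protein genes were the 74 genes of the deposited table whose symbol was MRPL or MRPS followed by a number and, in some, by the letter A, B or C. They made up 74 of 16782 genes. Of these, 46 carried MRPL names (proteins first assigned to the large subunit) and 28 carried MRPS names (small subunit). MRPL23, MRPL38, MRPL53 and MRPS18A were not analysed here. The choice rested on names only and used no measured value. RNA was taken from CAKI1 cells, an established human clear cell renal carcinoma line, to ask which genes respond to hLcn-2, the iron-loaded form of the iron carrier lipocalin-2. Before stimulation the cells of both groups were kept without serum, for 24 h. The 4 hLcn-2 samples then received hLcn-2 at 5 µg/mL for 24 h, and the 4 control samples were left unstimulated. Each group is numbered 1 to 4, all samples come from 1 cell line, and no sample with iron-free lipocalin-2 is among them, so the iron and the protein cannot be told apart.

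Mitochondria keep a small genome of their own and translate its messages, which encode core subunits of the respiratory chain, on a ribosome that differs from the cytosolic one. All protein parts of this mitoribosome are encoded in the nucleus, made in the cytosol and imported, while its rRNAs come from the mitochondrial genome. Many of its proteins descend from bacterial ribosomal proteins and others are found only in mitochondria, and loss of single members causes combined defects of the respiratory chain in human disease.

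The genes of the mitoribosome were measured in all 8 samples and showed no change past the adjusted threshold after hLcn-2. Of the 74 members, 0 passed an adjusted p-value threshold of 0.05 in limma (Benjamini-Hochberg adjustment, on log2(normalized count + 1)), as did 0.0% of the 15593 genes tested. With the replicate number as a block, 0 members passed against 0.282% of all genes. The edgeR quasi-likelihood test with the block on the recovered reads passed 0 members against 1.49% of all genes, and the DESeq2 Wald test with the block passed 0 against 1.11%. DESeq2 with the block gave no adjusted p to MRPL12, MRPL49, MRPS11 and MRPS24, so they could not pass it. Genes without an adjusted p stayed in the 15593 behind the 1.11%. At an unadjusted p of 0.05 or less, limma gave 0 members higher and 1 lower (MRPS6), against 1.21% and 1.06% of all genes. The edgeR test without the block passed 0 members and gave the same 1 member at an unadjusted p of 0.05 or less, against 1.25% of all genes higher and 0.827% lower. Limma with the block gave 3 members higher (MRPL3, MRPL19 and MRPS22) and 7 lower (MRPL4, MRPL12, MRPL14, MRPL16, MRPL48, MRPS6 and MRPS31), against 6.65% and 5.53% of all genes. The edgeR test with the block gave 5 higher and 6 lower, against 8.05% and 5.32%, and the DESeq2 test with the block gave 1 higher and 3 lower, against 4.46% and 2.92%. The median log2 fold change (hLcn-2 over control) was -0.01 over the members and 0.00 over all genes tested. The samples are bulk RNA scaled to a common library size, so fewer cells with a transcript and less of it per cell cannot be told apart. The quartiles of the members were -0.09 and 0.09, and those of all genes were -0.14 and 0.14. The median level was 62.9 CPM in the members and 15.5 CPM in all genes tested. Over the 4238 genes tested with a mean of at least 50 CPM the quartiles were -0.08 and 0.11. Over the 44 members of that level they were -0.07 and 0.08. In limma with the block, 4.55% of these 44 members were higher and 6.82% lower at an unadjusted p of 0.05 or less. Of the 4238 genes, 12.2% were higher and 6.91% lower at that p.

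The promoters of the members shared letters that the rule for choosing them did not use, and 2 sets of them are shown here. The share of both in the members was above that in other promoters, as was the share of GCATGCG, given below without sequences. The promoter sequences, 250 bases before to 50 bases after the gene start, were from RefSeq (GRCh38.p14), and 66 of the 74 members were matched to one. The letters CCGGAAG or their reverse complement, a core bound by factors of the ETS family such as GABPA, were found in 26 of 66 member promoters (39.4%), in 18.3% of the 10863 promoters of genes in the table and in 10.7% of all 27305 promoters. The first match began between 222 bases before and 7 bases after the gene start, and 19 of the 26 lay within 50 bases of it. The following promoters, in which capitals mark them, are examples from members named below and read along the strand of the gene.
MRPS31 (minus strand), chr13:40771204-40771233: aaggcgccaggCCGGAAGcggaagagaggg
MRPL48 (plus strand, letters on the opposite strand), chr11:73787800-73787829: aatttcagaagCTTCCGGaactaaaatgat
MRPS22 (plus strand), chr3:139343896-139343925: tctataagggcCCGGAAGacttccggccct
MRPS12 (plus strand), chr19:38930928-38930957: acggatagcgcCCGGAAGaggctagaagct
MRPL58 (plus strand), chr17:75012651-75012680: ggaagcgcccgCCGGAAGcagtcgcaagac
In MRPS22 the lower-case letters that follow hold a further copy on the other strand.

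The letters AAGATGG, the core of a motif that the zinc finger factor YY1 is known to bind, or their reverse complement were found in 21 member promoters (31.8%), against 7.32% of the promoters of genes in the table and 6.06% of all promoters. The first match began between 8 and 35 bases after the gene start in 14 of the 21, each of these on the strand of the gene. The ATG inside these letters is part of the motif and was not checked for use as a start codon. The capitals mark the motif in members of the highest and lowest level and of the exit tunnel, and in MRPS30 and MRPL46.
MRPS18B (plus strand), chr6:30617852-30617881: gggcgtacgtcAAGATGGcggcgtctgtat
MRPS27 (minus strand), chr5:72320206-72320235: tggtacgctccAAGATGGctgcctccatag
MRPS24 (minus strand), chr7:43869480-43869509: ccgcttggcccAAGATGGcggcctccgtgt
MRPL45 (plus strand), chr17:38297170-38297199: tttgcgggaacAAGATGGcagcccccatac
MRPS30 (plus strand), chr5:44808949-44808978: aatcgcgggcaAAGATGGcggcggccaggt
MRPL46 (minus strand), chr15:88467362-88467391: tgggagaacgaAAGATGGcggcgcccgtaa
The letters GCATGCG, the core of the palindrome that the factor NRF1 is known to bind, were found on either strand in 7 member promoters (10.6%), against 6.23% of the promoters of genes in the table and 4.13% of all promoters. CCAAT was found in 28.8% of member promoters against 36.7%, and TATAAA in 3.03% against 5.88%. The median GC content was 60.7% in the member promoters and 65% in those of the table, and none of these shares was tested.

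The members lie on 21 chromosomes. Of the 74, 17 (23.0%) start within 1000 bp of a gene that runs the other way, against 11% of the protein-coding genes of the table (GENCODE, GRCh38). One of these pairs is made of 2 members, MRPL46 and MRPS11, whose starts are 63 bp apart on chromosome 15. Others face genes of the respiratory chain, MRPL36 with NDUFS6 at 41 bp and MRPL47 with NDUFB5 at 41 bp.

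The depth lay between 1501563 and 13953090 reads per library, and the worth of 3 reads was between 0.211 and 1.98 on the scale of the deposited normalized counts, CPM, reads relative to a scaled library size. The kidney marker PAX8 was between 201 and 245 CPM and the tumor-associated anhydrase CA12 between 146 and 243 CPM. Of 8 renal epithelial markers 7 were measured in all samples, and ALB and GFAP, markers of liver and glia, lay between 0.0 and 5.27 CPM. Deviations from the group means correlated between same-numbered samples (0.31 to 0.61 across genes), so the numbers were taken to pair the samples. The labels do not say that the samples are separate cultures, so the p-values measure the spread between these samples, which may be technical.

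Because the libraries read only the 3′ end of a transcript, a transcript gives a tag near its end whatever its length, and levels may be compared between genes without a correction for length. The mean levels of the members over all 8 samples ran from 1.14 to 349 CPM with a median of 62.9 CPM. They reached 50 CPM in 44 members and 100 CPM in 15, and stayed under 20 CPM in 14. The 10 most abundant members took 35.4% of the summed level of all 74. The order of the mean levels was nearly the same in both groups (Spearman's rho 0.99 across the 74 genes, which share libraries and are no independent replicates).

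**Figure D1:**
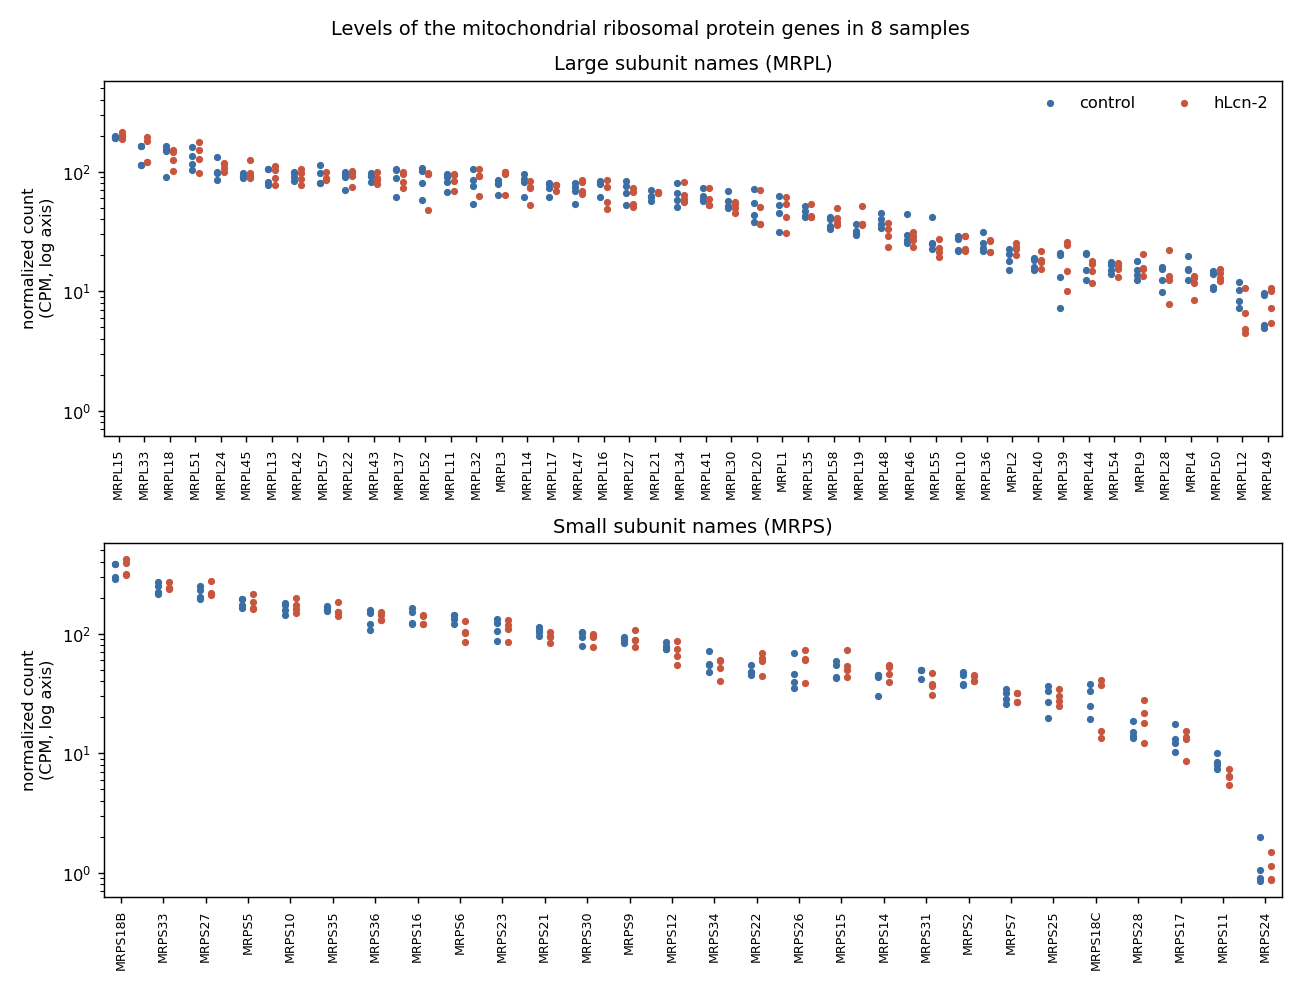
Normalized counts (CPM, log axis) of the 46 MRPL genes (upper panel) and the 28 MRPS genes (lower panel), ordered by mean level, with 1 point for each of the 4 control samples and the 4 hLcn-2 samples. MRPS18B is highest at a mean of 349 CPM and MRPS24 lowest at 1.14 CPM, and in most members the points of both groups cover the same range.

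MRPS18B (ENSG00000204568, chr6:30617840-30626395, plus strand) was the most abundant member. It is 1 of 3 human copies of a bacterial ribosomal protein, of which MRPS18B and MRPS18C were measured here. Its level was 298, 285, 386 and 387 CPM in controls 1 to 4 and 314, 310, 388 and 422 CPM in hLcn-2 samples 1 to 4. Each hLcn-2 sample was above the control of its number, but the groups overlapped widely, and the log2 fold change was 0.08 (SE 0.16). The number of the sample took 94.3% of the variation of MRPS18B on the log2 scale. MRPS18C, the paralog, was at 33.0, 38.0, 19.2 and 25.02 CPM in controls and at 40.6, 37.5, 15.3 and 13.5 CPM in hLcn-2 samples, with a log2 fold change of -0.22 (SE 0.35). Here samples 3 and 4 were low in both groups. All of the last 500 nt of MRPS18C, which a 3′ library reads, are overlapped by ABRAXAS1 on the other strand.

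MRPS33, a small subunit protein found only in mitochondria, followed with 225, 213, 252 and 269 CPM in controls and 241, 239, 236 and 269 CPM in hLcn-2 samples. MRPS27, a pentatricopeptide repeat protein that binds RNA, was at 249, 196, 231 and 201 CPM and at 276, 212, 218 and 216 CPM. MRPL15, a large subunit protein with a bacterial counterpart, was at 200, 193, 191 and 194 CPM and at 214, 199, 187 and 199 CPM. These 3 members had log2 fold changes of 0.04, 0.07 and 0.03, and their groups overlapped. Neighbours in the order of levels could not be told apart where their spread overlapped, as MRPS33 and MRPS27 did (243 and 225 CPM over all samples), while MRPS18B lay above all values of MRPS33.

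The lowest members were MRPL12 (8.01 CPM), MRPL49 (7.81 CPM), MRPS11 (7.40 CPM) and MRPS24 (1.14 CPM). MRPS24 had between 3 and 12 reads per library, so that its values of 0.845 to 1.98 CPM rest on counts near the floor of 3 reads. All of its last 500 nt are shared on the same strand with the readthrough gene URGCP-MRPS24, and how the authors counted reads there is not given in the sources used here. In 6 members (MRPL19, MRPL46, MRPS5, MRPS24, MRPS25 and MRPS28) at least 50% of the last 500 nt were covered by another gene on the same strand. Their median level was 29.3 CPM against 65.4 CPM in the other 68 members, with MRPS5 at 182 CPM among them. In addition, 34 members have named pseudogenes in the annotation, 79 entries in all (the name MRPS31P5 occurs more than once), which can take or give reads. The deposited values held entries only for those of MRPL30 (1), MRPS18C (1) and MRPS31 (2). How much of a level such overlaps and pseudogenes change was not tested.

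The large subunit members were first compared by role. The 3 proteins of the stalk, which recruits translation factors, were measured as MRPL10, MRPL11 and MRPL12. MRPL12 (ENSG00000262814, chr17:81703367-81707517, plus strand), the protein at the tip of the stalk, was at 7.18, 8.33, 10.2 and 11.9 CPM in controls and at 4.81, 6.62, 4.44 and 10.7 CPM in hLcn-2 samples, on 9 to 111 reads. Each hLcn-2 value was below the control of its number, while hLcn-2 sample 4 lay above controls 1 to 3. Its log2 fold change was -0.49 (SE 0.28), the lowest of all members, with an adjusted p of 1.0 (limma), and of 0.324 with the block. Another gene on the same strand covers 39.2% of its last 500 nt. MRPL10 and MRPL11, at the base of the stalk, had log2 fold changes of 0.02 (SE 0.18) and 0.04 (SE 0.16).

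A set of 4 members sits near the catalytic core, where peptide bonds are formed (MRPL2, MRPL3, MRPL4 and MRPL16). MRPL4 (ENSG00000105364, chr19:10251901-10260055, plus strand), which lines the start of the exit tunnel, was at 14.9, 15.4, 12.5 and 19.8 CPM in controls and at 13.5, 11.8, 8.39 and 12.8 CPM in hLcn-2 samples. All 4 pairs had the lower value with hLcn-2, and the log2 fold change was -0.40 (SE 0.21), with an adjusted p with the block of 0.303. A gene on the other strand covers 44.4% of its last 500 nt. MRPL2 was at 17.7, 22.5, 15.0 and 20.4 CPM in controls and at 25.4, 23.7, 20.2 and 22.4 CPM in hLcn-2 samples. All 4 pairs had the higher value with hLcn-2, and the log2 fold change was 0.28 (SE 0.18), with an adjusted p with the block of 0.436. MRPL3 and MRPL16 had log2 fold changes of 0.19 and -0.23, so the 4 members of the core differed in sign, and none passed the test.

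The central protuberance, which contacts the small subunit, was represented by 8 members with a median log2 fold change of -0.07. Of these, 6 had values below 0. The one with the smallest p was MRPL48, at 33.7, 36.4, 45.1 and 40.2 CPM in controls and 23.7, 37.0, 29.1 and 33.1 CPM in hLcn-2 samples. The groups overlapped through hLcn-2 sample 2, and the log2 fold change was -0.34 (SE 0.17, adjusted p with the block 0.290). MRPL58, which frees stalled ribosomes as a peptide hydrolase, was at 41.6, 40.2, 33.5 and 34.9 CPM and at 37.7, 50.1, 36.0 and 41.3 CPM, with a log2 fold change of 0.13 (SE 0.16). MRPS30, a large subunit protein in spite of its name, had a log2 fold change of -0.04 (SE 0.14).

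Around the exit tunnel and the anchor to the inner membrane, 6 members had a median log2 fold change of 0.11, and 5 of the 6 lay above 0. MRPL45, which holds the ribosome at the membrane, was at 97.6, 89.3, 92.9 and 92.2 CPM in controls and 126, 97.2, 91.8 and 89.6 CPM in hLcn-2 samples. Only hLcn-2 sample 1 stood clearly above the controls, and the log2 fold change was 0.11 (SE 0.14). MRPL44, which resembles an RNase, was the member of this group below 0, with a log2 fold change of -0.14 (SE 0.22).

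Outside these groups, MRPL19 and MRPL14 were among the large subunit members with small p-values. MRPL19 was at 30.5, 36.4, 32.3 and 29.6 CPM in controls and 51.8, 36.6, 35.5 and 36.7 CPM in hLcn-2 samples. It was higher in 4 of 4 pairs, mainly through sample 1. The log2 fold change was 0.30 (SE 0.16), with a two-sided exact permutation p of 0.0571 and an adjusted p with the block of 0.372. MRPL14 was at 95.2, 82.5, 61.3 and 86.3 CPM in controls and 83.9, 75.1, 52.8 and 72.8 CPM in hLcn-2 samples. The values were lower in 4 of 4 pairs by similar steps, while the ranges of the groups overlapped (log2 fold change -0.19, SE 0.18, adjusted p with the block 0.390). MRPL49 was at 9.72, 9.23, 4.94 and 5.27 CPM in controls and 10.7, 10.0, 5.43 and 7.18 CPM in hLcn-2 samples, higher in 4 of 4 pairs and overlapping between the groups (log2 fold change 0.18, SE 0.28). In all, the 46 MRPL genes had a median log2 fold change of 0.01, with 23 above and 23 below 0.

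**Figure D2:**
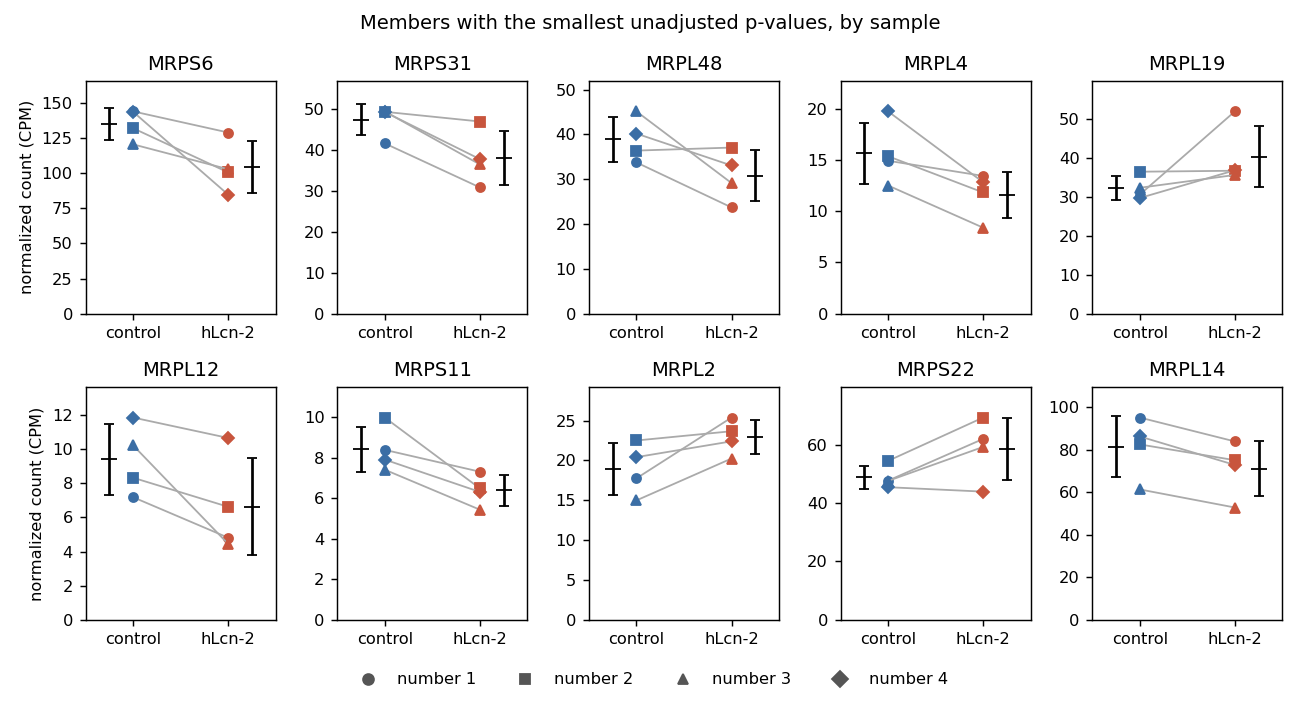
Normalized counts (CPM, axes from 0) of 10 members with small unadjusted p-values, by sample. They are the members with the 8 smallest unadjusted p-values in limma without the block or with it. Grey lines join samples of the same number (marker shapes), and black bars give the mean ± SD of each group (n = 4). MRPS6 goes from a mean of 135 to 104 CPM and MRPS11 from 8.42 to 6.38 CPM, and MRPS11 is the only one of these 10 whose groups do not overlap.

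Among the small subunit members, MRPS6 had the smallest p-value of all 74. MRPS6 (ENSG00000243927, chr21:34073224-34143034, plus strand, GRCh38, 3 exons) is the counterpart of a bacterial protein on the platform of the subunit. Its level was 144, 132, 120 and 144 CPM in controls and 129, 100, 103 and 84.6 CPM in hLcn-2 samples, a mean of 135 ± 11.2 against 104 ± 18.3 CPM (SD, n = 4). The hLcn-2 values were below the control of the same number in 4 of 4 pairs, and the groups overlapped through hLcn-2 sample 1. The log2 fold change was -0.38 (SE 0.15) with an adjusted p of 1.0, of 0.141 with the block and of 0.0857 in the edgeR test with the block, and the two-sided exact permutation p was 0.0571. MRPS6 did not pass the adjusted threshold of 0.05 in any of these tests, and it passed 0.1 in the edgeR and DESeq2 tests with the block only. The share of all genes that passed 0.1 in those tests was not counted, and at 0.05 it was already 1.49% in edgeR and 1.11% in DESeq2. MRPS6 differed from most members in that the sample number took only 23.0% of its variation, where the median over the members was 72.0%.

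MRPS31 (ENSG00000102738, chr13:40729128-40771190, minus strand), a small subunit protein found only in mitochondria, was at 41.7, 49.4, 49.5 and 49.4 CPM in controls and 30.9, 47.1, 36.5 and 37.8 CPM in hLcn-2 samples. It was lower in 4 of 4 pairs, and hLcn-2 sample 2 was the one that reached into the range of the controls. The log2 fold change was -0.32 (SE 0.16, adjusted p with the block 0.236). MRPS11 (ENSG00000181991, chr15:88467453-88480776, plus strand), a platform protein with a bacterial counterpart, was at 8.38, 9.98, 7.40 and 7.90 CPM in controls and 7.30, 6.48, 5.43 and 6.31 CPM in hLcn-2 samples. With the scaling of the authors it was the only member whose groups did not overlap (2 members with TMM), where 0.988% of all genes tested had all hLcn-2 values below all controls and 0.891% had them above. Its log2 fold change was -0.35 (SE 0.20), the two-sided exact permutation p of 0.0286 is the smallest that 4 against 4 samples can give, and the adjusted p with the block was 0.462. MRPL46, which starts 63 bp away on the other strand, had a log2 fold change of -0.15 (SE 0.19).

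MRPS22, a mitochondria-specific protein whose loss causes disease in infants, was at 47.7, 54.5, 47.6 and 45.4 CPM in controls and 62.0, 69.3, 59.2 and 43.9 CPM in hLcn-2 samples. In 3 of 4 pairs the value was higher and pair 4 was not, with a log2 fold change of 0.24 (SE 0.16, adjusted p with the block 0.362). Of its last 500 nt, 64.0% are overlapped by COPB2 on the other strand. MRPS12, which guards the accuracy of decoding, was at 84.3, 74.2, 74.0 and 79.0 CPM in controls and 64.7, 74.0, 54.3 and 87.4 CPM in hLcn-2 samples, with a log2 fold change of -0.17 (SE 0.16). The 3 members of the decoding site and mRNA channel (MRPS5, MRPS12 and MRPS24) had a median of -0.05. MRPS36, which is now counted as a subunit of the oxoglutarate dehydrogenase complex rather than a core protein of the mitoribosome, had a log2 fold change of 0.07 (SE 0.14). The 28 MRPS genes had a median log2 fold change of -0.01, with 13 above and 15 below 0. Split by origin, the 45 members classed as having a bacterial counterpart and the 28 classed as mitochondria-specific both had a median of -0.01, with MRPS36 left out of both. MRPS18B was counted among the 28, although it is a copy of a bacterial protein.

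The size of a change that these samples would still allow was read from the intervals of limma with the block, on the scale of the normalized count + 1, which understates changes of low members. On that scale the 95% interval of all 74 members lay within 2-fold in either direction. This held for 93.6% of all genes tested and for 99.8% of the 4238 genes with a mean of at least 50 CPM. The outermost bounds over the members were 0.531 and 1.63 times the control on that scale. With a pseudocount of 0.1 in place of 1, 72 of 74 intervals lay within 2-fold, those of the low members MRPL12 and MRPS24 did not, and the outermost bounds were 0.447 and 2.03 times the control. Intervals within 1.5-fold were reached by 65 members (87.8%), against 59.5% of all genes tested and 95.8% of those with a mean of at least 50 CPM. The median width of an interval to either side was 0.22 on the log2 scale with the block and 0.38 without it. Without the block and with the pseudocount of 1, 72 of the 74 intervals lay within 2-fold.

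**Figure D3:**
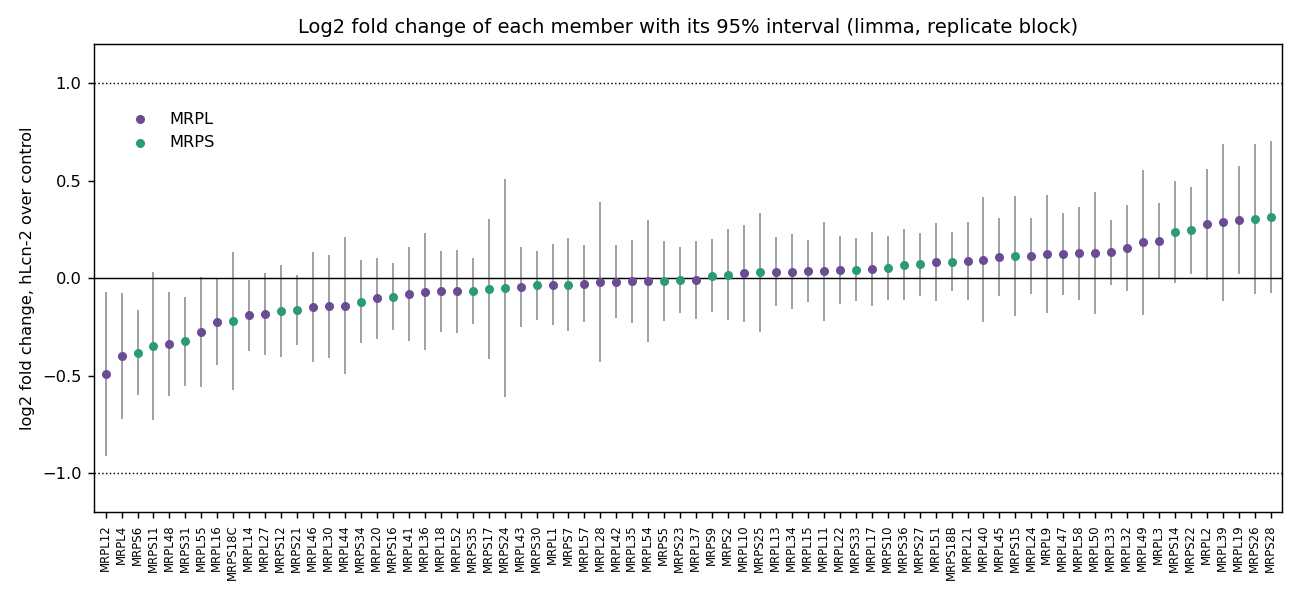
Log2 fold change (hLcn-2 over control) of each of the 74 members, ordered from the lowest to the highest, with the 95% interval of limma with the replicate block as grey bars and 2-fold changes as dotted lines, all on the scale of log2(normalized count + 1). The values run from -0.49 (MRPL12) to 0.31 (MRPS28), and all intervals lie between the dotted lines.

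Paired by number, 7 members were higher in hLcn-2 samples in 4 of 4 pairs and 9 were lower, where 9.93% and 10.9% of all genes were. The 7 were MRPL2, MRPL19, MRPL22, MRPL33, MRPL49, MRPL50 and MRPS18B, and the 9 were MRPL4, MRPL12, MRPL14, MRPL20, MRPS6, MRPS11, MRPS16, MRPS21 and MRPS31. These counts depend on the scaling. They were 7 and 9 with the scaling of the authors, 8 and 8 with TMM, 6 and 9 with DESeq2 size factors, and 3 and 13 when each library was divided by its plain total. The sign of 4 pairs cannot give an exact p under 0.125. The medians over the members in pairs 1 to 4 were -0.06, 0.00, -0.02 and 0.04 on the log2 scale.

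More of the variation followed the sample number than the treatment. Over the members, a median of 72.0% of the variation on the log2 scale went with the number and 5.66% with the group, where the medians over all genes tested were 66.6% and 6.15%. The number divides the samples into more classes than the group does. Its share is therefore larger even without any pattern, and the shares of number and group cannot be compared directly. In 38 members (51.4%) the lowest control was control 3, against 19 for control 4, 11 for control 2 and 6 for control 1, and over all genes tested control 3 was the lowest in 30.02%. In 36 members (48.6%) the lowest hLcn-2 sample was hLcn-2 sample 3, where this held for 36.0% of all genes tested. MRPL52 was an example, at 108, 102, 58.5 and 80.3 CPM in controls and 98.5, 96.1, 47.9 and 95.02 CPM in hLcn-2 samples, and was named after its values were seen. The rRNA of the mitoribosome moved the other way in these samples. MT-RNR2, the rRNA of the large subunit, was at 33323, 37478, 63610 and 43231 CPM in controls and 33460, 39188, 73185 and 43416 CPM in hLcn-2 samples, with its highest values in number 3. The part of this in the low values of the members was not tested, and reads of rRNA in a library primed on poly(A) need not follow the amount of rRNA.

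Summed over all 74 members, the level was 5812, 5559, 5032 and 5483 CPM in controls 1 to 4 and 5815, 5570, 4974 and 5595 CPM in hLcn-2 samples 1 to 4. The change within a pair was 0.0437%, 0.191%, -1.14% and 2.06%, with a mean of 0.287%, well below the difference of samples 3 from the others. The sum of the 76 cytosolic ribosomal protein genes was higher in 4 of 4 pairs, by 5.73%, 4.75%, 4.10% and 5.91%. Their median log2 fold change was 0.05, with 61 above and 15 below 0, and with the block 9 had an unadjusted p of 0.05 or less above 0 and 0 below. Those 9 were 11.8% of the list, where 6.65% of all genes tested and 12.2% of the 4238 genes with a mean of at least 50 CPM were higher at that p. The sum of the 76 nuclear-encoded respiratory chain subunits changed by 5.54%, 2.36%, -1.33% and -5.60%, with a median log2 fold change of -0.01. These lists share all libraries and the difference between them was not tested. Divided by the plain library totals, the sum of the members changed by -2.67%, -3.33%, -1.98% and 0.450%, and that of the cytosolic genes by 2.87%, 1.07%, 3.22% and 4.24%.

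**Figure D4:**
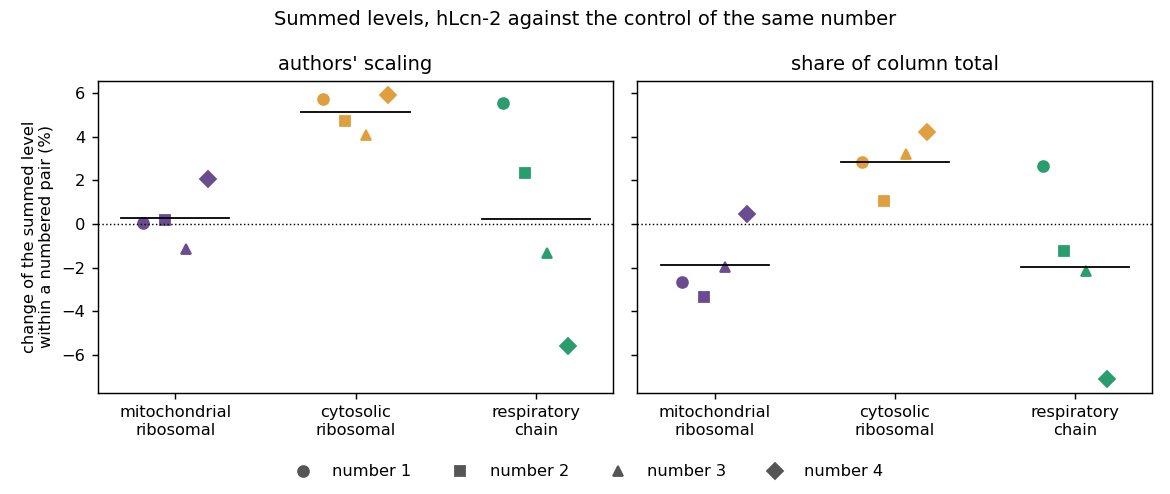
Change of the summed normalized counts (percent) in each hLcn-2 sample against the control of the same number, for the 74 mitochondrial ribosomal protein genes, 76 cytosolic ribosomal protein genes and 76 nuclear-encoded respiratory chain subunits, with the scaling of the authors (left) and as a share of the plain library total (right). Black lines are means of the 4 pairs. The cytosolic genes lie above 0 in all 4 pairs in both panels, and the mitochondrial ribosomal genes lie between -1.14% and 2.06% on the left.

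Other genes of the same pathway were examined as lists. A further 6 proteins of the mitoribosome or its membrane insertase carry other names (DAP3, PTCD3, AURKAIP1, CHCHD1, GADD45GIP1 and OXA1L). Of these, 5 had log2 fold changes below 0 (median -0.10), and none passed the test. Lower values in 4 of 4 pairs were found in 3 of the 6, where 10.9% of all genes tested had them. GADD45GIP1, a large subunit protein at the exit of the tunnel, was at 38.2, 41.3, 23.1 and 50.05 CPM in controls and 31.2, 35.5, 15.8 and 37.4 CPM in hLcn-2 samples, a log2 fold change of -0.36 (SE 0.29, adjusted p with the block 0.207).

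Of 16 mitochondrial translation factors, 10 lay above and 6 below 0, with a median log2 fold change of 0.06 and 0 past the threshold. TSFM, the exchange factor that recharges elongation factor TUFM, was at 18.2, 22.8, 14.8 and 8.56 CPM in controls and 34.3, 24.2, 24.7 and 11.5 CPM in hLcn-2 samples. TUFM itself, which brings tRNA to the ribosome, was at 182, 149, 146 and 217 CPM and at 163, 139, 135 and 168 CPM. TSFM was higher and TUFM lower in 4 of 4 pairs, with log2 fold changes of 0.51 (SE 0.34) and -0.19 (SE 0.15) and adjusted p-values with the block of 0.194 and 0.370. The 26 measured assembly and rRNA processing factors had a median of 0.03, with 15 above and 11 below 0. In limma with the block, the assembly factors MPV17L2 and RCC1L had an unadjusted p of 0.05 or less, with log2 fold changes of -0.45 and -0.28 and adjusted p-values of 0.355 and 0.371. They were 7.69% of the list, where 5.53% of all genes tested were lower at that p. Of 6 genes of mitochondrial transcription, none passed. TEFM, an elongation factor, was at 6.97, 8.03, 7.05 and 11.2 CPM in controls and 4.19, 6.90, 5.92 and 5.00 CPM in hLcn-2 samples (log2 fold change -0.51, SE 0.23, adjusted p with the block 0.318). All hLcn-2 values of TEFM were below all controls. TFB2M, a factor of promoter opening, was at 16.3, 26.0, 10.6 and 12.5 CPM in controls and 25.1, 27.3, 18.8 and 12.8 CPM in hLcn-2 samples, higher in 4 of 4 pairs (log2 fold change 0.37, SE 0.29, adjusted p with the block 0.366). These genes and GABPA were named after their values were seen.

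Among 8 measured regulators of mitochondrial biogenesis, GABPA was the only gene whose groups did not overlap. Over all genes tested, 0.891% had all hLcn-2 values above all controls and 0.988% had them below. In the other lists of the pathway, GFM1 and TEFM were also without overlap. GABPA is the DNA-binding subunit of an ETS factor long known to bind promoters of respiratory and mitoribosomal genes, and lies at chr21:25734570-25772460 (plus strand, GRCh38), with no other gene over its last 500 nt. It was at 14.1, 16.4, 17.8 and 9.22 CPM in controls and 22.2, 22.5, 28.1 and 20.2 CPM in hLcn-2 samples, on 14 to 249 reads. All hLcn-2 values were above all controls, with 14.4 ± 3.77 against 23.3 ± 3.40 CPM (SD, n = 4). The log2 fold change was 0.68 (SE 0.22). Its adjusted p was 1.0 in limma, 0.0655 in limma with the block, 0.0193 in the edgeR test with the block and 0.0306 in the DESeq2 test with the block, so that GABPA passed in the last 2 and not in the others. Of all genes tested, 1.49% passed in that edgeR test and 1.11% in that DESeq2 test. The log2 fold change of GABPA stayed between 0.50 and 0.79 when single samples were left out. NRF1, PPARGC1B and PPRC1 had log2 fold changes of -0.07, -0.28 and -0.11, and MYC had 0.53 (adjusted p with the block 0.154), and none of them passed. PPARGC1A, the coactivator PGC-1α that drives mitochondrial biogenesis, was at 37.1, 29.5, 71.9 and 42.8 CPM in controls and 38.5, 22.0, 55.8 and 33.5 CPM in hLcn-2 samples. Its log2 fold change was -0.27 (SE 0.30), the difference was below 0 in 3 of 4 pairs, and it did not pass (adjusted p with the block 0.362).

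The members with the ETS letters in their promoters were set beside GABPA. The 26 members with the letters had a median log2 fold change of -0.03, with 10 above and 16 below 0, and the 40 matched members without them had a median of -0.01, with 19 above and 21 below 0. In the groups with and without the letters, 1 and 5 members were higher in 4 of 4 pairs, and 4 and 5 were lower. For the YY1 letters the medians were 0.04 (21 members with them) and -0.02 (45 without), while YY1 itself was at 267, 305, 308 and 333 CPM in controls and 266, 312, 294 and 289 CPM in hLcn-2 samples. Whether the level of either factor bears on the members was not tested, and the letters do not show that a factor binds there.

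**Figure D5:**
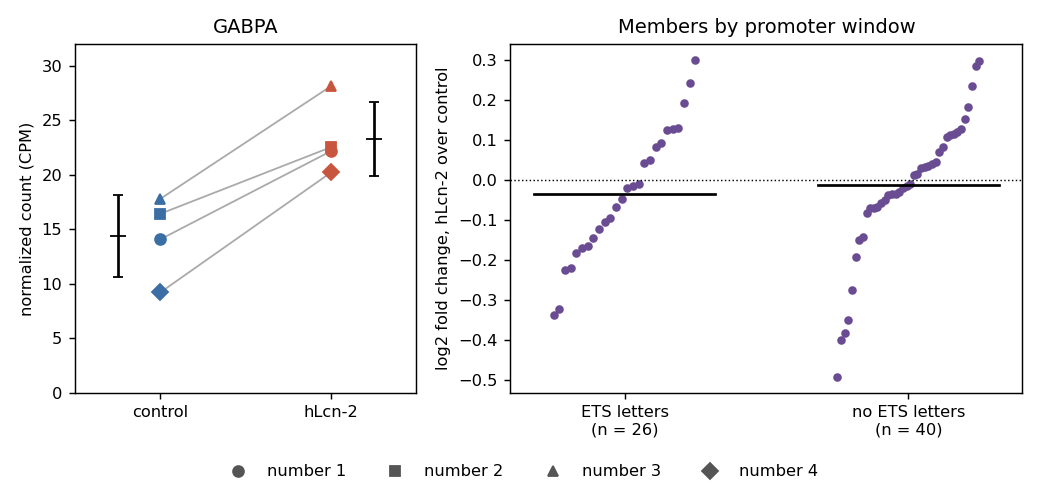
Left, normalized counts of GABPA (CPM, axis from 0) by sample, with lines between samples of the same number and the mean ± SD of each group (n = 4). Right, log2 fold change of the members with (n = 26) and without (n = 40) the ETS letters in the promoter, 1 point per member, with the median as a line. GABPA goes from a mean of 14.4 to 23.3 CPM, while the medians on the right are -0.03 and -0.01.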

How the data were processed

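CAKI1 RNA from 4 control and 4 hLcn-2 samples was read by single-end QuantSeq 3′ libraries with UMI, sequenced for 75 cycles. The authors aligned to GRCh38 with STAR, collapsed reads by UMI, counted with HTSeq and normalized with edgeR (versions, annotation and strand setting are not given in the sources used here). What the authors deposited is a signal on a scaled axis, each gene's normalized count as CPM of an adjusted library size (factors 0.970 to 1.06). All 134256 values came out as whole reads within 0.01 read plus a small share of the count, and these reads were used in the count tests. For the largest counts, such as those of MT-RNR2, this limit was too wide for a value to fail it. These reads are the ones left after collapsing by UMI, and 3 reads were taken as the floor. One cell was written with a decimal comma, and 2645 of 2810 genes without a symbol were named from GENCODE 44.

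Limma 3.58.1 (R 4.3.3) was fitted on log2(value + 1) with an intensity trend, two-sided, for the 15593 genes that reached 1 CPM in 2 or more samples, a filter that all 74 members passed, with Benjamini-Hochberg adjustment over all of them. Same-numbered samples were paired because their deviations correlated across genes (0.48, 0.59, 0.61 and 0.31), a hint from the data beside the numbers in the labels. A legend of the study gives fewer samples per group than were deposited without naming them, and all 8 were used here. The members and lists were chosen with earlier results of these data known. Members are named by these rules: adjusted p under 0.05, the 8 smallest p-values with and without the block, the 4 highest and 4 lowest levels, groups without overlap, and role. Other genes named meet the count beside them. Alternatives were pseudocounts of 0.1 and 5, filtering none or on 10 CPM in the mean, rescaling by TMM, DESeq2 size factors or column totals, no trend, the block, edgeR 4.0.16, DESeq2 1.42.0, a threshold of 0.1 and leaving out samples. Promoter letters were searched on both strands.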

Additional observations from a re-analysis of the deposited data

Results flagged for a closer look

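In 4 of the 50 groups of 4 samples examined for the named members, 1 sample stood apart from the other 3, where chance alone gives about 2.5 (1 in 20). MRPS33 was at 269 CPM in hLcn-2 sample 4, against 236 to 241 CPM in the other hLcn-2 samples. MRPS27 was at 276 CPM in hLcn-2 sample 1, against 212 to 218 CPM. MRPL19 was at 51.8 CPM in hLcn-2 sample 1, against 35.5 to 36.7 CPM. MRPS31 was at 41.7 CPM in control 1, below the 49.4 to 49.5 CPM of the other controls.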

How the results depend on the processing

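None of the 74 members passed an adjusted p of 0.05 in any alternative run (other pseudocounts, filters and normalizations, no trend, edgeR, DESeq2, the replicate block alone or with most of these, and samples left out), so at 0.05 the block changed no call of a member. The filter on 10 CPM left 70 members to test, and the block was not run without a filter. DESeq2 with the block gave no adjusted p to MRPL12, MRPL49, MRPS11 and MRPS24, nor to some low pathway genes, TEFM and NRF1 among them. At a threshold of 0.1, 0 members passed in limma with and without the block, and 1 (MRPS6) passed with the block in edgeR and in DESeq2. The share of all genes that passed 0.1 in those tests was not counted. At 0.05 it was already 1.49% in edgeR and 1.11% in DESeq2, both with the block. Thresholds of 0.1 with the block were chosen after seeing the data. Of the pathway genes 0 passed without the block. With the block, 1 (GABPA) passed in edgeR and in DESeq2, where 1.49% and 1.11% of all genes tested passed. GABPA also passed in limma with the block and a filter on a mean of 10 CPM, at an adjusted p of 0.0481. Over all its alternatives that adjusted p ran from 0.0193 to 1.0. Combinations of the block with a rescaling, and the rescaled sums, were chosen after seeing the data.

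Dividing by column totals moved the median log2 fold change of the large subunit members from 0.00725 to -0.0236, with and without the block, the mean change of the summed level from 0.287% to -1.88%, and MRPL10 to -0.0066, with and without the block. With TMM 2 members had no overlap between the groups, in place of 1. MRPS24, with 3 to 12 reads, went from -0.0506 to 0.0339 in edgeR, 0.0653 in edgeR with the block and 0.0113 in DESeq2. Leaving out single samples gave a median over the members between -0.0305 and 0.0547 (0.0331 with the block and without number 1), and over the large subunit members between -0.0294 and 0.0701 (with the block, 0.035 without number 1 and 0.0358 without number 3). The log2 fold change then crossed 0 in MRPS33 (-0.0104 to 0.101), MRPS27 (-0.0192 to 0.133), MRPS36 (-0.0264 to 0.15), MRPL45 (-0.00165 to 0.162), MRPS30 (-0.118 to 0.0419), MRPL11 (-0.0661 to 0.135, and -0.124 with the block and without number 4), MRPS18C (-0.469 to 0.0386), MRPL10 (-0.0384 to 0.0965) and MRPS24 (-0.136 to 0.105, and 0.156 with the block and without number 4). The cause of these moves was not tested.

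Depth limits the low members most. Intervals within 1.5-fold were reached by 42 of the 44 members with a mean of at least 50 CPM and by 23 of the 30 below it. Counts from 3′ ends do not show amounts of protein or of assembled ribosomes.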
